A study of Mus musculus with 27 samples.

Results

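The mitochondrial solute carriers of the Slc25 family were described in tibialis anterior muscle of mice across 3 weeks after volumetric muscle loss (VML), the surgical removal of so much muscle that the tissue cannot regrow it. The members were the 47 protein-coding genes whose symbol begins with Slc25a, of 54532 genes in the expression table and 22046 protein-coding genes in it. Total RNA was taken from 27 muscles of 8-week-old male C57BL/6 mice, in 5 groups: no injury (n = 5), and 3, 7, 14 and 21 days after removal of 40% of the muscle (n = 5, 6, 6 and 5). The study's methods describe removal on both sides and the series record on 1 side, and nothing in the labels says that the muscles of a group came from separate mice, so p-values measure only the spread between these samples. No gene was targeted, and the comparisons ask how the muscle's transcripts differed from those of uninjured muscle at each time.

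Slc25 proteins sit in the mitochondrial inner membrane, with a few exceptions in the outer membrane or in peroxisomes. Most of them exchange a solute of the matrix for a solute of the cytosol. They carry ADP, ATP and phosphate for ATP synthesis, the aspartate, glutamate, malate and oxoglutarate of the malate-aspartate shuttle, acylcarnitines, citrate, and cofactors, nucleotides and iron. Adult muscle is rich in the ADP/ATP carrier encoded by Slc25a4, whereas dividing cells rely on its paralog Slc25a5.

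Expression was given by the authors as FPKM (fragments scaled to gene length and to the reads of the sample), which allows levels of different genes to be compared. Whole reads were recovered from FPKM and length, and totalled 14376395 to 24436763 per sample. By all tested genes, 9 of the 27 samples lay nearest to another group, among them day 3 replicate 5, nearest to day 7, and day 7 replicate 5, nearest to day 3. The 8 defining myofibre markers summed to 87584 to 104311 FPKM in uninjured muscle, as the tissue label says, and to 22442 to 65911 at day 3. The 8 macrophage markers summed to 18.04 to 27.2 FPKM in uninjured muscle and to 367 to 2415 at day 3. None of the 8 macrophage markers had a mean of 0 in uninjured muscle. In bulk tissue, fewer cells of a type and less RNA per cell cannot be told apart.

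At day 3 the Slc25a genes moved unequally. The ADP/ATP carrier Slc25a4, by far the most abundant member, fell 2.74-fold, and Slc25a34, a less characterised member, fell from 6.82 to 1.39 FPKM. Slc25a5, the citrate carrier Slc25a1, the dicarboxylate carrier Slc25a10, the ATP-Mg/phosphate carrier Slc25a24 and Slc25a45 rose 2.85- to 8.14-fold. These calls held under each of the 5 scalings between samples that were tried, the deposited scaling included. Of these, median-ratio scaling left the deposited values nearly unchanged and is hardly a separate check. The 37 members that reached 0.5 FPKM in 5 or more samples were tested with all other genes that did so, and a call is an adjusted p under 0.05 from limma with Benjamini-Hochberg adjustment over all 14630 genes.

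In the deposited scaling, 6 of the 37 tested members were higher and 21 lower at day 3, against 23.4% of all genes higher and 19.8% lower. With FPKM rescaled to a common sum (TPM), 11 members were higher and 2 lower of 38, against 46.9% and 2.13% of all genes. With each sample's own total of reads 11 were higher and 6 lower of 37, against 44.8% and 4.13% of all genes. The member added by the common sum, Slc25a13, is among the 11 and passed the filter on low values only through injured samples. The deposited FPKM used denominators of 0.782 times the read total without injury and 1.25 times at day 3, on average. Rescaling to a common sum moved the median log2 fold change of all genes at day 3 to 0.50, and the own total moved it to 0.41, from 0.01. Relative to that median, 27 of 37 members lay below it in the deposited scaling, 25 of 38 with the common sum and 25 of 37 with the own total. The median member lay 0.57 below the all-gene median on the log2 scale in the deposited scaling, 0.30 below with the common sum and 0.35 below with the own total. Fold changes below are log2 differences of FPKM + 1 against uninjured muscle in the deposited scaling, with their standard errors, and understate the change of low genes.

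**Figure D1:**
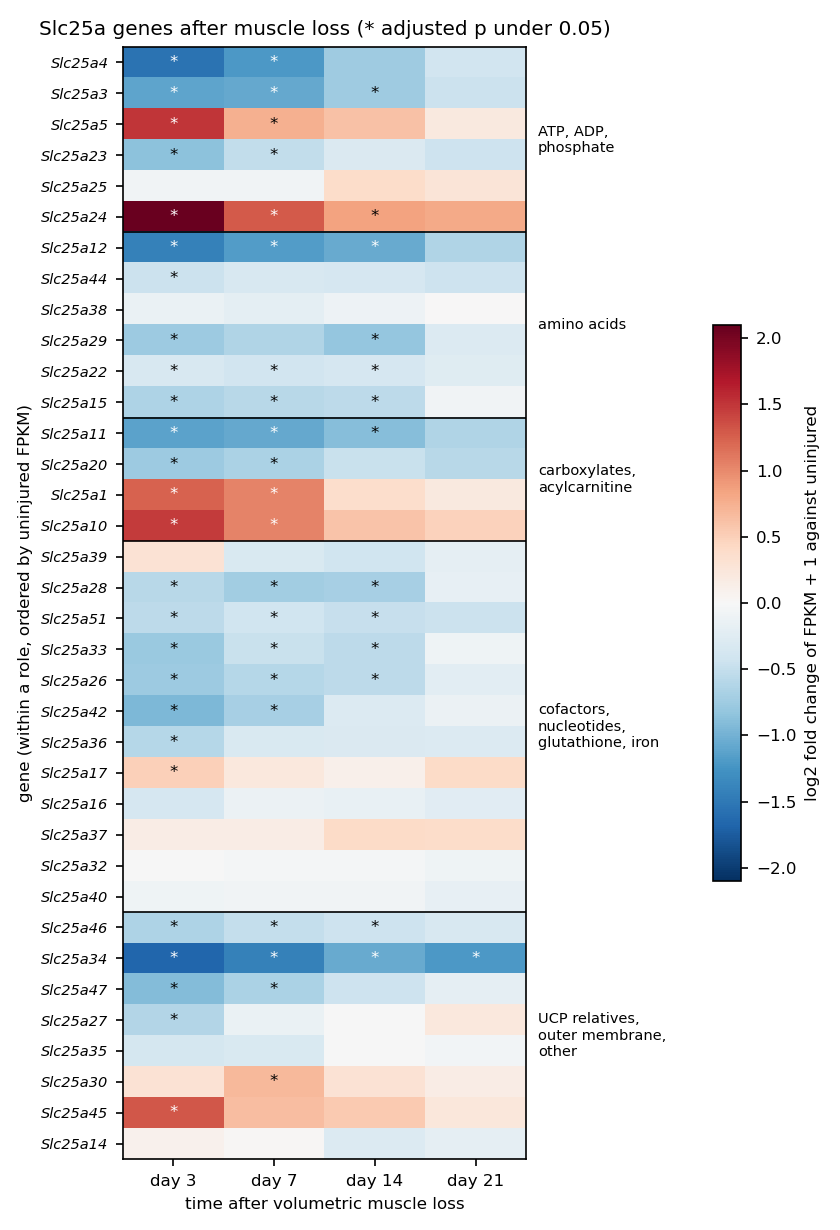
Log2 fold change of FPKM + 1 against uninjured muscle (colour) of 36 of the 37 tested Slc25a genes (rows, by role) at 4 times (columns), with an asterisk where the adjusted p was under 0.05. In this deposited scaling 21 of the 37 were lower and 6 higher at day 3, while with a common sum per sample the split was 2 lower and 11 higher. Slc25a4 and Slc25a34 are the darkest blue rows at day 3 and Slc25a24 the darkest red.

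Nucleotide and phosphate carriers split by isoform. Of 6 tested genes of this role, 3 fell and 2 rose at day 3, beside 19.8% of all genes lower and 23.4% higher. With the common sum 1 was lower and 2 higher, beside 2.13% and 46.9% of all genes. Slc25a4 (chr8:46206797-46211284, GRCm38, minus strand) had 3589, 2493, 2598, 2384 and 2648 FPKM in the 5 uninjured muscles and 1288, 1107, 756.6, 441.0 and 1419 at day 3. It had a lowest, median and highest value of 597, 1275 and 2265 at day 7 and of 1043, 1546 and 2481 at day 14, and 2119, 1892, 2466, 1934 and 1925 at day 21. Day 3 and day 7 values all lay below the uninjured range, and day 14 and day 21 values overlapped it. The log2 fold change of -1.55 ± 0.35 at day 3 had an adjusted p of 0.000871, and that of -1.21 ± 0.33 at day 7 one of 0.00874. Later values were -0.75 ± 0.33 at day 14 (adjusted p = 0.108) and -0.40 ± 0.35 in the last group (adjusted p = 0.561). At day 3 Slc25a4 also fell with the common sum (-0.73 ± 0.22) and with the own total (-0.89 ± 0.24). At day 7 Slc25a4 was called lower with the own total, but not with the common sum or after quantile normalization.

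Slc25a5 (chrX:36795651-36798807, GRCm38, plus strand) had 43.9, 31.1, 21.0, 30.8 and 27.3 FPKM without injury and 91.9, 60.5, 109, 121 and 66.7 at day 3. At day 7 it ranged from 32.1 to 118 around a median of 49.5, at day 14 from 42.0 to 54.3 around 46.0, and at day 21 from 30.3 to 41.4. The groups did not overlap at day 3, when it rose by 1.50 ± 0.26 (adjusted p = 5.77e-05). The rise at day 7 (0.75 ± 0.24, adjusted p = 0.0234) was lost in 4 of the 11 fits that left out 1 sample. Without day 7 replicate 5, the sample with 118 FPKM that lay nearest to day 3, it was 0.51 (adjusted p = 0.0679). Its adjusted p was also above 0.05 without uninjured replicate 3 (0.0751) or 5 or without day 7 replicate 4. The processed pseudogene Slc25a5-ps held at most 13 reads in any sample, and reads of near-identical copies could have been split in the authors' counting.

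The 250 bases before the RefSeq start sites (GRCm38.p6) of these opposed ADP/ATP carriers and of Slc25a34 are shown 5′ to 3′ on the gene's own strand, with a match to a searched motif in capitals.
Slc25a4, chr8:46211063-46211312, minus strand: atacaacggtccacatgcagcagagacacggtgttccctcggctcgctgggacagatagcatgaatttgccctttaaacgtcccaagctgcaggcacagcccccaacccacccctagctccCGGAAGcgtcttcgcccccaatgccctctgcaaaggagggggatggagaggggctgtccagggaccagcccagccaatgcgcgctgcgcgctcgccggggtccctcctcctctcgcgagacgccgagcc
Slc25a5, chrX:36795347-36795596, plus strand: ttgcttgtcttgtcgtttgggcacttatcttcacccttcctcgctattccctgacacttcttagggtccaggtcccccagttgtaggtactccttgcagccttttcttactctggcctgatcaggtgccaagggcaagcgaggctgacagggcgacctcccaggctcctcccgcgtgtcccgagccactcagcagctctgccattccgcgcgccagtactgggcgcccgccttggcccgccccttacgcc
Slc25a34, chr4:141623835-141624084, minus strand: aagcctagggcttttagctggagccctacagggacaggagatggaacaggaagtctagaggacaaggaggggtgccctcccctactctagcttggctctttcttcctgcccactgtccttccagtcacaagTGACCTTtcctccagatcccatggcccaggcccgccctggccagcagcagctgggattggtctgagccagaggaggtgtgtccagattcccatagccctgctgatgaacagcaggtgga
The 4 motifs, chosen after the values were seen, were the ERR binding site AAGGTCA, the NRF1 core GCATGCGC, the ETS core CGGAAG bound by GABP, and the AP-1 site TGANTCA, each on both strands in 300 bases from 250 before to 50 after the start. No motif contains another. RefSeq gave promoters for 36 of the 47 genes, 46 promoters in all. The ETS core lay 129 bases before the Slc25a4 start and in 11 of the 46 promoters (23.9%), against 16.9% of all 32851 promoters. The ERR site, in the reverse direction 119 bases before the Slc25a34 start, was found in no other Slc25a promoter, and in 4.72% of all promoters. The NRF1 core was in 4.35% of Slc25a promoters and 2.71% of all, and the AP-1 site in 4.35% and 7.81%. None of these letters was found in the window of Slc25a5. These matches are descriptions of sequence, and binding was not measured.

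**Figure D2:**
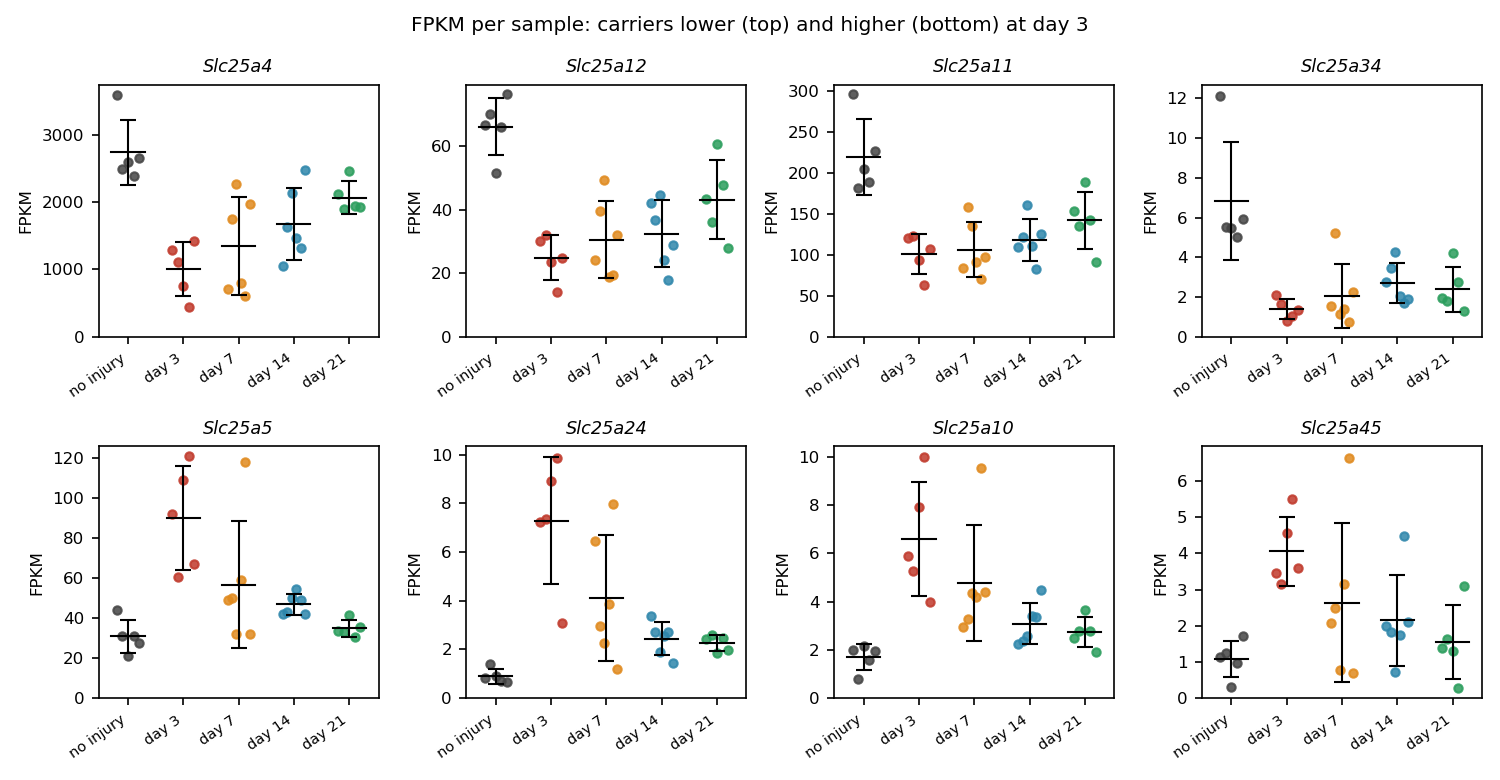
FPKM of 8 Slc25a genes in each of the 27 muscles (points), with the mean (line) and SD (bars) per group. Slc25a4, Slc25a12, Slc25a11 and Slc25a34 lay lower at day 3 than without injury (for Slc25a12 and Slc25a11 not called with a common sum per sample), and Slc25a5, Slc25a24, Slc25a10 and Slc25a45 higher.

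Slc25a3, which carries the phosphate used by ATP synthase, had the next highest level after Slc25a4. It had 361, 248, 304, 252.5 and 288 FPKM without injury and 175, 153, 122, 86.2 and 151 at day 3, with no overlap. It fell by 1.10 ± 0.20 on the log2 scale at day 3, by 1.07 ± 0.19 at day 7 and by 0.75 ± 0.19 at day 14 (adjusted p = 0.00778), and was at -0.46 ± 0.20 at day 21 (adjusted p = 0.197). With the common sum the day 3 value was -0.28 ± 0.19 (adjusted p = 0.231), and the call was lost.

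The calcium-regulated ATP-Mg/phosphate carriers load the matrix with adenine nucleotides. Slc25a24 (chr3:109123149-109168457, plus strand) had 0.832, 1.41, 0.894, 0.687 and 0.657 FPKM without injury, from 29 to 83 reads a sample, and 7.22, 7.36, 8.90, 9.88 and 3.08 at day 3. It ranged from 1.19 to 7.97 at day 7, from 1.46 to 3.36 at day 14 and from 1.84 to 2.61 at day 21. The lowest day 3 value was that of replicate 5, and every day 14 and day 21 sample lay above the uninjured range. It rose by 2.07 ± 0.28 at day 3 (adjusted p = 4.29e-06), by 1.29 ± 0.27 at day 7 and by 0.85 ± 0.27 at day 14 (adjusted p = 0.0257), and was at 0.79 ± 0.28 at day 21 (adjusted p = 0.11). The day 14 call was lost without any 1 of uninjured replicates 1, 4 or 5 or day 14 replicates 1 or 5, with adjusted p from 0.0503 to 0.0602. Its paralog Slc25a23 had 5.94, 4.97, 6.41, 4.68 and 6.74 FPKM without injury and 2.63, 4.17, 2.02, 2.06 and 3.04 at day 3, and fell by 0.85 ± 0.18, though with the common sum it was at -0.21 ± 0.17 and not called. Slc25a25, of the same subfamily, was at 2.68 ± 0.90 FPKM without injury (SD, n = 5) and 4.41 ± 2.94 at day 14 (SD, n = 6), and was called at no time.

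Amino acid carriers had 5 of 6 tested genes lower and none higher at day 3, beside 19.8% and 23.4% of all genes. With the common sum none was lower, beside 2.13% of all genes. Slc25a12, the aspartate/glutamate carrier of the malate-aspartate shuttle, had 66.7, 70.0, 51.7, 66.1 and 76.3 FPKM without injury and 30.1, 32.0, 23.6, 14.0 and 24.6 at day 3. It had a lowest, median and highest value of 18.7, 28.1 and 49.2 at day 7 and 17.7, 32.9 and 44.7 at day 14, and 43.4, 36.1, 60.6, 47.7 and 27.96 at day 21. The first 3 times lay wholly below the uninjured range, and day 21 overlapped it in 1 sample. Slc25a12 fell by 1.42 ± 0.27 at day 3 (adjusted p = 0.000187), by 1.17 ± 0.26 at day 7 and by 1.06 ± 0.26 at day 14, and was at -0.64 ± 0.27 at day 21 (adjusted p = 0.185). It was also called lower at day 3 with the own total of reads (-0.77 ± 0.26), and not with the common sum (-0.61 ± 0.31, adjusted p = 0.0977).

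The branched-chain amino acid carrier Slc25a44 went from 6.98 ± 0.395 FPKM without injury to 4.92 ± 1.19 at day 3 (SD, n = 5 each). The basic amino acid carrier Slc25a29 went from 4.97 ± 1.04 to 2.56 ± 0.90, and its fall of 0.77 ± 0.29 (adjusted p = 0.0324) was lost in 6 of the 10 fits that left out 1 sample. The glutamate carrier Slc25a22 and the ornithine carrier Slc25a15 fell by 0.33 ± 0.12 and 0.64 ± 0.15, and the call of Slc25a22 was lost in 4 of those 10 fits. The glycine carrier Slc25a38, needed for haem synthesis, was at 6.11 ± 0.68 FPKM without injury and 5.49 ± 0.84 at day 3 and was called at no time.

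Carriers of carboxylates and acylcarnitines had 2 of 4 tested genes higher and 2 lower at day 3 and again at day 7 in the deposited scaling. Of all genes, 23.4% were higher and 19.8% lower at day 3, and 15% and 14.4% at day 7. With the common sum 2 were higher and none lower at both times. The shares of all genes there were 46.9% and 2.13% at day 3, and 42.7% and 1.38% at day 7. Slc25a11, the oxoglutarate/malate carrier of the malate-aspartate shuttle, had 296, 181, 205, 189 and 227 FPKM without injury and 120, 122, 93.9, 62.5 and 107 at day 3. The groups did not overlap, and it fell by 1.13 ± 0.23 at day 3 (adjusted p = 0.000343), by 1.08 ± 0.22 at day 7 and by 0.89 ± 0.22 at day 14. With the common sum the day 3 value was -0.31 ± 0.26 (adjusted p = 0.341). Slc25a11 overlaps Rnf167 on the other strand, at 14.1 FPKM without injury and 9.57 at day 3, and the libraries did not keep strand. The carnitine/acylcarnitine carrier Slc25a20, which admits fatty acids for oxidation, went from 17.5 ± 3.38 to 9.85 ± 1.39 FPKM at day 3 (SD, n = 5 each), a fall not called with the common sum (0.00 ± 0.31) or the own total (-0.15 ± 0.25).

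Slc25a10, which exchanges malate or succinate for phosphate, had 1.999, 0.790, 2.15, 1.60 and 1.94 FPKM without injury and 5.895, 5.29, 7.93, 9.997 and 3.99 at day 3. It rose by 1.47 ± 0.23 at day 3 (adjusted p = 2.17e-05) and by 1.05 ± 0.22 at day 7 (adjusted p = 0.00132). At day 7 its values ran from 2.95 to 9.55, all above the uninjured range, with replicate 5 the highest. Without that sample the day 7 value was 0.86, still called. Slc25a1, which exports the citrate used for lipid synthesis, had 3.02, 2.79, 3.82, 2.63 and 2.43 FPKM without injury and 7.31, 8.79, 8.42, 10.9 and 6.43 at day 3. It rose by 1.24 ± 0.20 at day 3 and by 1.04 ± 0.20 at day 7, when its values ran from 3.99 to 12.2 FPKM, and was at 0.36 ± 0.20 at day 14.

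Of the 13 tested carriers of cofactors, nucleotides, glutathione and iron, 7 fell and 1 rose at day 3 (19.8% and 23.4% of all genes). With the common sum none fell and 3 rose (2.13% and 46.9% of all genes). Slc25a28, the iron carrier mitoferrin 2, had 36.65, 25.1, 32.9, 26.2 and 38.3 FPKM without injury and 26.7, 21.4, 20.2, 19.6 and 16.8 at day 3. It fell by 0.58 ± 0.20 at day 3, a call lost without day 3 replicate 5 or uninjured replicate 5, and its value was 0.22 with the common sum and 0.06 with the own total, neither called. Slc25a37, mitoferrin 1, which serves erythroid haem synthesis, had 2.26, 3.29, 4.12, 2.89 and 3.66 FPKM without injury and 3.70, 3.68, 3.10, 3.66 and 4.29 at day 3. It was called at no time in the deposited scaling, but was called higher at days 3 and 7 with the common sum (0.79 ± 0.27 and 0.73 ± 0.26) and at days 3, 7 and 14 with the own total. Summed FPKM of the 5 erythroid markers ranged from 257 to 386 in uninjured muscle and from 161 to 321 at day 3, and 0 of the 3 tested were called.

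The glutathione carrier Slc25a39 stood at 33.7 ± 6.25 FPKM without injury and 42.2 ± 8.59 at day 3 (0.31 ± 0.21, adjusted p = 0.244), and was called higher with the common sum (1.11 ± 0.29) and the own total (0.96 ± 0.24). Its paralog Slc25a40 was at 0.620 ± 0.262 and 0.511 ± 0.096 FPKM. The pyrimidine nucleotide carriers Slc25a33 and Slc25a36 fell by 0.78 ± 0.18 and 0.61 ± 0.18 at day 3, with values of -0.03 and 0.00 with the common sum. The NAD carrier Slc25a51 went from 15.3 ± 0.78 to 10.2 ± 1.84 FPKM (SD, n = 5 each). The peroxisomal carrier Slc25a17 was the member of this role that rose, by 0.50 ± 0.18 (adjusted p = 0.029), a call lost in 5 of the 10 fits that left out 1 sample. It rose with the common sum and the own total too, by 1.17 ± 0.24 and 1.04 ± 0.21, but was at 0.38 with an adjusted p of 0.0804 after quantile normalization.

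Among relatives of the uncoupling proteins, outer membrane members and less characterised members, 4 of 8 tested genes fell and 1 rose at day 3. Of all genes, 19.8% were lower and 23.4% higher. With the common sum 1 was lower and 3 higher, beside 2.13% and 46.9% of all genes. Slc25a34 (chr4:141618824-141623821, minus strand) had 12.1, 5.55, 5.49, 5.02 and 5.94 FPKM without injury and 2.12, 1.65, 0.809, 1.02 and 1.34 at day 3. It had a lowest, median and highest value of 0.742, 1.47 and 5.22 at day 7 and 1.68, 2.41 and 4.28 at day 14, and 1.93, 1.77, 4.20, 2.74 and 1.31 at day 21. All samples at days 3, 14 and 21 lay below the uninjured range, and 1 sample at day 7 lay within it. Slc25a34 fell by 1.67 ± 0.28 at day 3 and by 1.42 ± 0.27 at day 7. It was at -1.06 ± 0.27 at day 14 and -1.20 ± 0.28 at day 21 (adjusted p = 0.0181). At day 3 the fall was 1.09 with the common sum, where it was called as well.

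Slc25a45 had 1.13, 1.25, 0.322, 0.981 and 1.73 FPKM without injury, from 10 to 67 reads a sample, and 3.47, 3.16, 4.56, 5.50 and 3.60 at day 3. It rose by 1.30 ± 0.34 at day 3 (adjusted p = 0.00291) and was called at no later time in the deposited scaling. At day 7 it was at 0.65 (adjusted p = 0.127), called without day 7 replicate 3 or 6 and with the common sum (1.13 ± 0.39) or the own total (1.004 ± 0.37). Slc25a30, a relative of the uncoupling proteins, was called higher at day 7 in each scaling, at 3.31 ± 1.79 FPKM (SD, n = 6) against 1.56 ± 0.37 without injury (SD, n = 5), and was called at day 3 as well with the common sum (0.85 ± 0.24) and the own total (0.74 ± 0.21). Its difference between day 3 and day 7 was not tested. Slc25a46, an outer membrane protein of mitochondrial dynamics, went from 12.1 ± 0.78 to 7.40 ± 1.10 FPKM at day 3. Slc25a47 and the uncoupling protein relative Slc25a27 fell by 0.91 ± 0.22 and 0.62 ± 0.22 at day 3, and the call of Slc25a27 was lost in 3 of the 10 fits that left out 1 sample.

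A ratio of paralogs within a sample does not change when all values of that sample are multiplied by 1 factor. The 1 added to FPKM makes the log ratio of low genes depend on scaling, and the tests were not repeated in another scaling. Of 6 pairs fixed from known paralogy 5 could be tested, since Slc25a13, the partner of Slc25a12, was too low. Each of 20 exact two-sided permutation tests compared the difference in log2(FPKM + 1) between the genes of a pair at 1 time with uninjured muscle. Of the 20, 11 had an adjusted p under 0.05 (Benjamini-Hochberg over 20). Slc25a4 exceeded Slc25a5 by 6.45 ± 0.27 log2 units without injury (SD, n = 5) and by 3.40 ± 1.06 at day 3 (SD, n = 5, exact p = 0.00794, adjusted p = 0.0157). The excess was 4.50 ± 1.46 at day 7 and 5.08 ± 0.49 at day 14 (SD, n = 6 each, exact p = 0.00433 for both, the smallest that 5 against 6 samples can give). It was 5.85 ± 0.10 at day 21 (SD, n = 5, exact p = 0.00794, adjusted p = 0.0157). All day 21 samples had a larger Slc25a5 share of the summed FPKM of both genes than any uninjured muscle, 1.54 to 1.82% against 0.803 to 1.28%, although neither gene alone was called at day 21. The share was 4.49 to 21.5% at day 3.

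Slc25a24 made up 8.89 to 22.04% of the summed FPKM of Slc25a23 and Slc25a24 without injury and 50.3 to 82.8% at day 3. At day 7 the share ran from 16.9 to 78.3%, at day 14 from 27.3 to 45.9% and at day 21 from 25.3 to 46.2%. The log ratio of this pair differed from uninjured muscle at all 4 times, by -2.92, -1.80, -1.16 and -1.22 (adjusted p = 0.0157 for each exact permutation test). With 0.1 in place of 1 added to FPKM, these differences were -3.90, -2.51, -1.72 and -1.80. The share of Slc25a37 in the mitoferrin pair rose from 9.43 ± 2.32% in uninjured muscle to 15.2 ± 3.15% at day 3. It was 17.2 ± 6.91% at day 7 and 20.4 ± 9.30% at day 14. Its log ratio passed at these times (adjusted p = 0.0157), but not at day 21 (14.1 ± 2.85%, exact permutation test adjusted p = 0.0661), while Slc25a37 itself was not called at any of them in the deposited scaling and was called higher at days 3 and 7 with the common sum. The pairs Slc25a39 and Slc25a40, and Slc25a33 and Slc25a36, passed at no time, with differences between -0.35 and 0.40 log2 units. Leaving out any 1 sample left 11 or 12 of the 20 tests under 0.05.

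**Figure D3:**
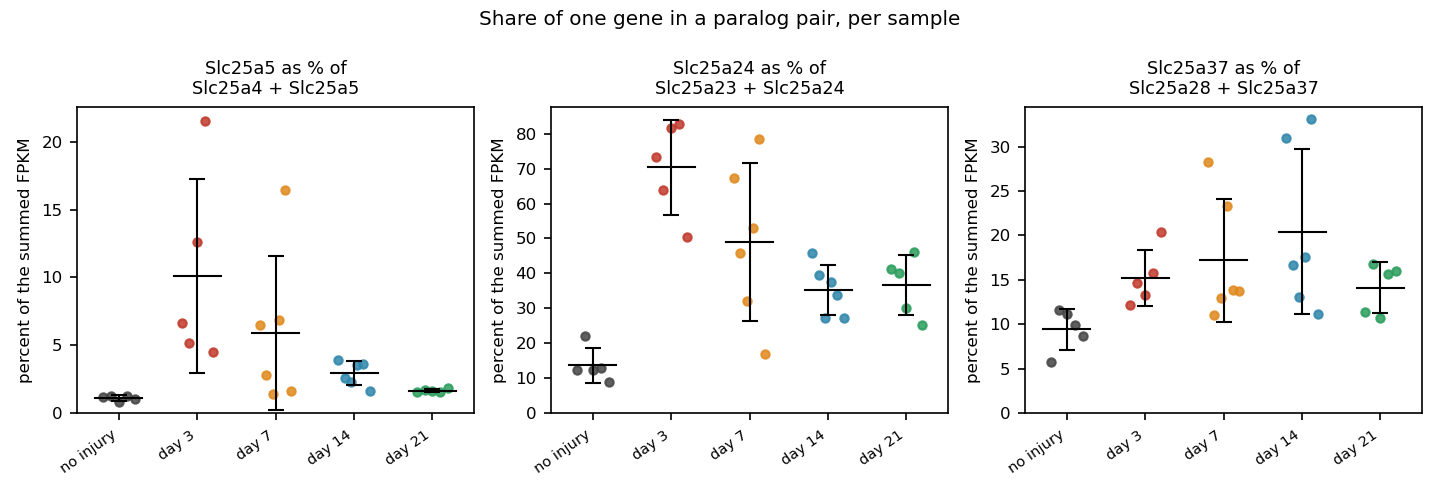
Share of Slc25a5, Slc25a24 and Slc25a37 in the summed FPKM of their paralog pair (percent) in each muscle (points), with the mean (line) and SD (bars) per group. The Slc25a5 share lay above every uninjured value in all samples of days 3, 7, 14 and 21.

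Slc25a4 alone made up 76.7 ± 0.904% of the summed FPKM of the 47 members without injury (SD, n = 5), 62.8 ± 9.75% at day 3 (n = 5), 69.2 ± 10.1% at day 7 (n = 6), 74.7 ± 3.99% at day 14 (n = 6) and 76.8 ± 1.44% at day 21 (n = 5). In the deposited scaling the summed FPKM was 3574 ± 600 without injury and 1542 ± 435 at day 3, and without Slc25a4 it was 831 ± 120 and 540 ± 55.2. These sums depend on that scaling, whose denominators averaged 0.782 times the read total without injury and 1.25 times at day 3. They are not given in another scaling. In the deposited scaling, 13 of the 18 tested members with the highest mean FPKM over all samples were lower and 3 higher at day 3, with a median of -0.70. Of the other 19, 8 were lower and 3 higher, with a median of -0.33. Their mean FPKM ran from 0.523 to 4.17, where log2(FPKM + 1) understates changes, so the medians of these parts are not directly comparable. Other genes of like level were not compared. These medians lie beside 0.01 for all tested genes and share the scaling dependence given above.

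**Figure D4:**
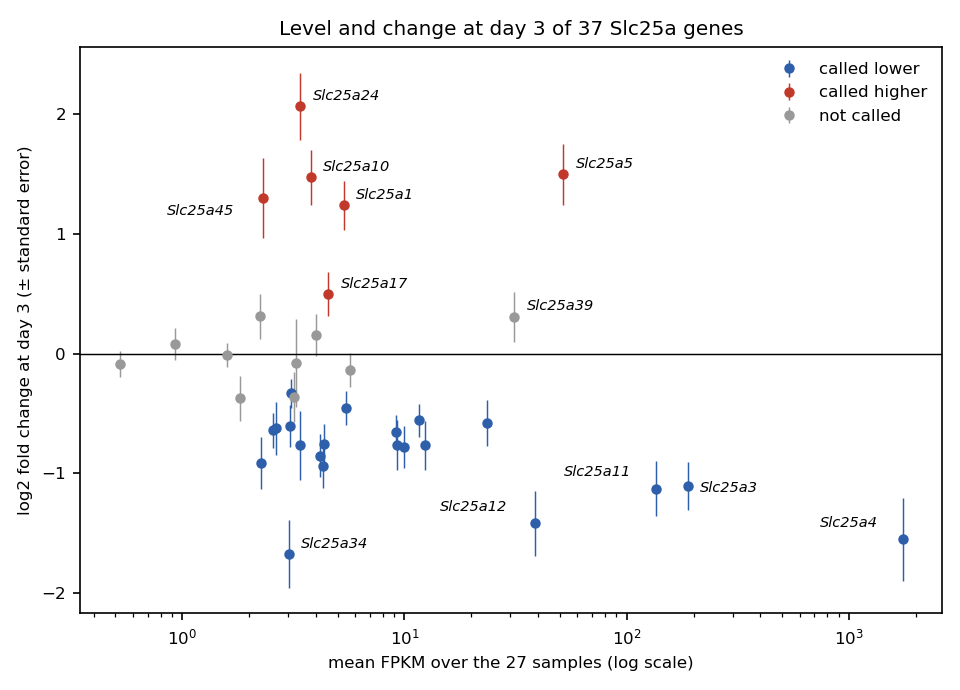
Mean FPKM over all 27 samples (log axis) against the log2 fold change at day 3 in the deposited scaling (points, bars are standard errors) of the 37 tested Slc25a genes, coloured by call. Slc25a4, the most abundant, lay at -1.55 and Slc25a5 at 1.50, both called in the same direction with a common sum per sample, as were Slc25a34, Slc25a24, Slc25a10, Slc25a1 and Slc25a45.

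Fewer members were called with time after injury. At day 7, 5 of 37 were higher and 17 lower (15% and 14.4% of all genes), with a median of -0.34 beside 0.03 for all genes, and 8 were higher and 1 lower with the common sum (42.7% and 1.38% of all genes). Slc25a5, Slc25a1, Slc25a10, Slc25a24 and Slc25a30 were higher and Slc25a34 lower at day 7 in each of the 5 scalings. At day 14, 1 was higher and 12 lower (9.02% and 11.3% of all genes), with a median of -0.31, and 2 were higher and none lower with the common sum (10.9% and 0.701% of all genes). Without day 14 replicate 5, 7 members were lower and none higher, and no call of day 14 held in all 5 scalings. At day 21 none was higher and only Slc25a34 was lower in limma's test (1.74% and 1.69% of all genes). The unadjusted p was under 0.05 for 14 of the 37 members, beside 2898 of all 14630 genes. With voom on the recovered reads, 0 were higher and 1 lower. The limma call of Slc25a34 was lost without uninjured replicate 1 (adjusted p = 0.0579), day 21 replicate 2 (0.0561) or day 21 replicate 5 (0.0516), and with the common sum or the own total, and 3 members were lower without day 21 replicate 3. The comparisons with uninjured muscle share its 5 samples.

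Day 21 was also compared with day 3, to ask how the carriers differed between the first and last times. In the deposited scaling 9 members were higher and 5 lower at day 21 (9.23% and 16.2% of all genes), with a median of 0.31 beside 0.00 for all genes, but with the common sum none was higher and 9 were lower (1.1% and 33.1% of all genes). Slc25a5 (-1.30 ± 0.26), Slc25a24 (-1.28 ± 0.28), Slc25a45 (-1.07 ± 0.34), Slc25a1 (-1.04 ± 0.20) and Slc25a10 (-0.99 ± 0.23) were lower at day 21 in each scaling. The Slc25a45 call was lost without day 3 replicate 3 (adjusted p = 0.0503), day 3 replicate 4 (0.0651) or day 21 replicate 4 (0.0741). Slc25a4 was higher by 1.15 ± 0.35 (adjusted p = 0.0168), and called with the own total too but not with the common sum. That call was lost without day 3 replicate 4 (0.89, adjusted p = 0.0759), which left 5 members higher in all. Slc25a12, Slc25a3, Slc25a33 and Slc25a42, the coenzyme A carrier, were among the 9, at 0.78, 0.64, 0.69 and 0.81. The call of Slc25a12 was lost in 5 of the 10 fits that left out 1 sample (adjusted p up to 0.139) and that of Slc25a3 in 2.

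Genes that work with the carriers were counted from lists written from known function. Of 33 tested transport genes without an Slc25a symbol, 17 were lower and 5 higher at day 3, against 19.8% and 23.4% of all genes. With the common sum 3 were lower and 12 higher of 34, where 2.13% of all genes were lower and 46.9% higher. Both subunits of the pyruvate carrier (Mpc1, -1.32 ± 0.25, and Mpc2, -1.48 ± 0.34), all 4 enzymes of the malate-aspartate shuttle and all 3 outer membrane channels were lower in the deposited scaling. With the common sum, 1 of 2, 0 of 4 and 1 of 3 of these were. Other lists were mixed in the deposited scaling. Of 4 tested carnitine shuttle enzymes 2 were higher and 2 lower at day 3. Of 6 calcium uniporter genes 1 was higher and 1 lower, with a median of 0.20. Of the 10 tested genes of the machinery that imports the carriers, 3 were lower and none higher, beside 19.8% and 23.4% of all genes. With the common sum 4 of these 10 were higher and none lower, beside the same 46.9% of all genes higher. Of 91 respiratory chain subunits, 81 were lower and 3 higher at day 3 (19.8% and 23.4% of all genes), with a median of -1.13. With the common sum 15 were lower and 5 higher (2.13% and 46.9% of all genes). Of 4 other carrier family symbols, 2 were higher and 2 lower at day 3. Among them Ucp2, known from immune cells, went from 2.40 to 32.1 FPKM and Ucp3, the muscle uncoupling protein, from 36.6 to 10.99.

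**Figure D5:**
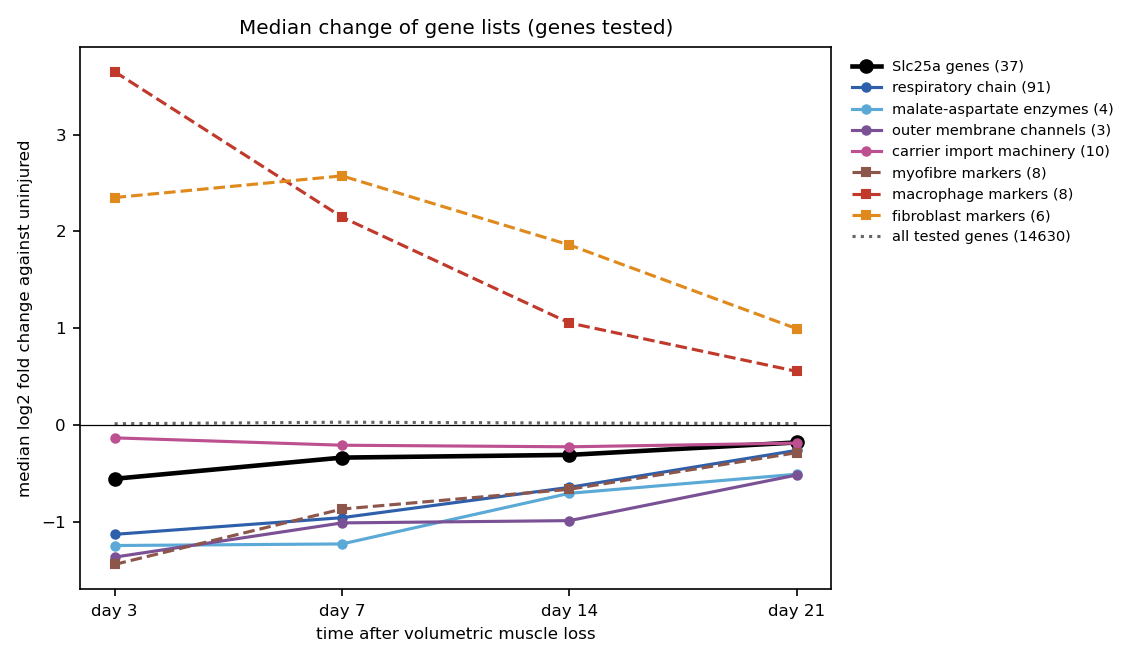
Median log2 fold change against uninjured muscle in the deposited scaling (vertical axis) at 4 times (horizontal axis) of the Slc25a genes, of related gene lists (solid lines) and of cell type markers (dashed lines), with all tested genes dotted. At day 3 the Slc25a median was -0.56, the respiratory chain median -1.13 and the macrophage median 3.65; with a common sum per sample these were 0.20, -0.31 and 4.23.

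Markers of other cell types moved with the groups. At day 3, 7 of 8 myofibre markers were lower (median -1.44), and 8 of 8 macrophage, 5 of 6 fibroblast and 4 of 4 cycling cell markers were higher. Of all genes, 19.8% were lower and 23.4% higher. With the common sum 3 myofibre markers were lower and 8, 6 and 4 of the others higher, beside 2.13% and 46.9% of all genes. At day 7 all 3 tested adipocyte markers were higher, beside 15% of all genes, and 0 at day 3. In uninjured muscle the 4 cycling markers summed to 0.192 to 0.627 FPKM and the 4 adipocyte markers to 0.249 to 2.21. None of these could pass the filter on low values without injured samples, so their calls of higher were partly set by the filter. At day 3, 2 of 5 endothelial markers were lower, beside 19.8% of all genes. Within day 3, replicate 5 had the lowest summed macrophage markers (367 FPKM) and the lowest Slc25a24 and Slc25a10 of its group, and within day 7, replicate 5 had the highest macrophage markers (2289 FPKM) and the highest Slc25a5, Slc25a24, Slc25a10 and Slc25a45. Slc25a1 was highest at day 7 in replicate 6 (12.2 FPKM), the sample of that time with the lowest macrophage markers (53.2 FPKM), and Slc25a5 and Slc25a45 were lowest at day 3 in replicate 2. Without day 3 replicate 5 and day 7 replicate 5, 7 members were higher and 20 lower at day 3, and 4 higher and 14 lower at day 7. The part of these cell types in the changes of the carriers was not tested.

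The 10 members that were not tested stayed at or below 1.38 FPKM in every sample. They were Slc25a13, the aspartate/glutamate carrier of liver and many other tissues, Slc25a31, the testis ADP/ATP carrier, Slc25a2, Slc25a18, Slc25a21, Slc25a41, Slc25a43, Slc25a48, Slc25a53 and Slc25a54. Slc25a13 was at 0.194 ± 0.109 FPKM without injury and 0.592 ± 0.335 at day 3 (SD, n = 5 each) and reached 1.38 FPKM in day 7 replicate 5, against at most 0.336 in uninjured muscle. Of the 37 tested members, Slc25a14, Slc25a16, Slc25a25, Slc25a32, Slc25a35, Slc25a37, Slc25a38, Slc25a39 and Slc25a40 were called in none of the comparisons with uninjured muscle in the deposited scaling. The folate carrier Slc25a32 had the narrowest interval among them at day 3, at -0.01 ± 0.10 on the log2 scale. Its level was low, where log2(FPKM + 1) understates changes, and it was called higher at day 3 with the own total. Slc25a14 was called higher at day 3 with the common sum and the own total. After quantile normalization Slc25a35 and Slc25a40 were called lower at day 3.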

How the data were processed

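Poly-A RNA was sequenced from 27 tibialis anterior muscles in libraries that did not keep strand. The authors filtered the reads and, per the processing notes, aligned them with HISAT2 2.0.5 and counted them per gene with featureCounts 1.5.0-p3. They deposited 1 table of FPKM with gene length and position. How FPKM was scaled between samples is not given in the sources used here. Median-ratio scaling changed it little, with a median log2 fold change of all genes at day 3 of 0.0121 before and after.

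FPKM times length gave whole reads for 100% of values, so depth was recovered (14376395 to 24436763 reads per sample). Genes that reached 0.5 FPKM in 5 or more samples (14630 genes, 37 of 47 members) were fitted as log2(FPKM + 1) with limma 3.58.1 in R 4.3.3, all 27 samples in 1 fit, a mean per group and a variance trend, two-sided, with adjusted p values by Benjamini-Hochberg over all genes of a comparison at 0.05. Paralog log ratios were compared by exact permutation over samples (scipy 1.17.1, Python 3.11.15). The fit was tested on simulated data. The values of 1 tested member are not reported here, though it is in the counts. The members, lists and tests were chosen with earlier results of these data known. Genes named by rule were both genes of each tested pair and, at each time, called genes with the largest changes. These were up to 4 with the largest rise and 4 with the largest fall. Of the genes named by rule, Slc25a29, Slc25a33, Slc25a36, Slc25a39 and Slc25a40 were not given sample by sample. Slc25a3, Slc25a44, Slc25a20, Slc25a30 and others named by role were taken in order of level or change. Alternatives were the pseudocount, the filter, the scaling, voom on recovered reads, replicate blocks and leaving out samples. Groups and replicate numbers came from the sample titles. Same-numbered samples had a median correlation of deviations of -0.00315 (over 0.1 in 15 of 51 pairs), and the main fit used no block. Same-numbered samples of days 7 and 14 all correlated positively, from 0.0915 to 0.566, and what they share was not tested. Positions are as deposited, and 44 of 47 members had the same coordinates in GENCODE release 21 (GRCm38).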

Additional observations from a re-analysis of the deposited data

Results flagged for a closer look

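Among 90 groups of samples tested for a single value far from the others (the Dixon criterion), 9 were marked, where chance marks about 1 in 20. No explanation was tested for them. Uninjured replicate 1 was highest for Slc25a4, at 3589 FPKM beside 2384 to 2648 in the others, and for Slc25a34, at 12.1 beside 5.02 to 5.94. Without it Slc25a34 was no longer called at day 21. Day 7 replicate 5 was highest for Slc25a5, at 118 FPKM beside 32.1 to 58.8, and for Slc25a10, at 9.55 beside 2.95 to 4.39. This is the sample of day 7 with the most macrophage marker FPKM. Day 7 replicate 2 was highest for Slc25a34, at 5.22 FPKM beside 0.742 to 2.25. Day 14 replicate 3 was highest for Slc25a29 (4.75 FPKM beside 1.57 to 2.50) and day 14 replicate 5 for Slc25a45 (4.49 beside 0.725 to 2.11). For Slc25a36, day 3 replicate 5 had 3.92 FPKM beside 1.77 to 2.01, and day 21 replicate 5 had 4.59 beside 2.41 to 2.88.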

How the results depend on the processing

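The scaling between samples changed most counts of called members. With a common sum per sample (TPM), 11 were higher and 2 lower at day 3, 8 and 1 at day 7, 2 and 0 at day 14, 0 lower at day 21, and 0 higher and 9 lower at day 21 against day 3. With the own total of reads, 11 were higher and 6 lower at day 3, 8 and 5 at day 7, 5 and 0 at day 14, 0 lower at day 21, and 3 higher at day 21 against day 3. The cause was not tested. Median-ratio scaling gave the same counts as the deposited scaling, and quantile normalization kept every count within 1.5 times. At day 14, 2 members were higher with a pseudocount of 0.1 or 0.5 or an FPKM minimum of 1, 0 without a filter or with voom, and 3 with only the compared groups in the fit. With only the compared groups, 3 were higher at day 7, and 1 higher and 3 lower at day 21. With a pseudocount of 0.1, 1 was higher at day 21. Without day 3 replicate 5 and day 7 replicate 5, 3 were higher at day 14 and 1 at day 21. The titles' numbers were not used as pairs in the main fit. With the number as a replicate block, 2 were higher at day 14 and 2 lower at day 21, and with the letter as a replicate block, 3 were higher at day 14, and 1 higher and 3 lower at day 21. Leaving out 1 sample gave 5 to 6 higher and 18 to 21 lower at day 3, 4 to 6 and 15 to 18 at day 7, 0 to 2 and 7 to 12 at day 14, 0 and 0 to 3 at day 21, and 5 to 12 higher and 4 to 7 lower at day 21 against day 3. The paralog tests stayed at 11 or 12 of 20.

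Some log2 fold changes of the genes named by rule turned direction with the scaling, in 38 of the values computed. With the common sum they were 0.217 for Slc25a28, 0.00236 for Slc25a36 and 0.199 for Slc25a40 at day 3. At day 7 they were 0.380 for Slc25a39, 0.207 for Slc25a33, 0.0680 for Slc25a23, 0.232 for Slc25a36 and 0.193 for Slc25a40. At day 14 they were 0.0380 for Slc25a39, 0.0917 for Slc25a23, 0.0746 for Slc25a36 and 0.109 for Slc25a40, and at day 21 0.00899 for Slc25a39, 0.0139 for Slc25a28 and 0.0907 for Slc25a33. Between days 21 and 3 they were -0.139 for Slc25a11, -0.203 for Slc25a28, -0.0600 for Slc25a23, -0.279 for Slc25a37 and -0.143 for Slc25a36. With the own total they were 0.0631 for Slc25a28 and 0.144 for Slc25a40 at day 3, and 0.210 for Slc25a39, 0.0446 for Slc25a33, 0.0971 for Slc25a36 and 0.121 for Slc25a40 at day 7. At day 14 they were 0.0274 for Slc25a23, 0.0129 for Slc25a36 and 0.0792 for Slc25a40, and at day 21 0.00799 for Slc25a39, 0.0140 for Slc25a28 and 0.0892 for Slc25a33. Between days 21 and 3 they were -0.0491 for Slc25a28, -0.147 for Slc25a37 and -0.0247 for Slc25a36. After quantile normalization Slc25a4 was at 0.00380 at day 14 and 0.0470 at day 21, and Slc25a40 at 0.0565 between days 21 and 3.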
